A study of Mus musculus with 4 samples.

Results

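The myogenic genes followed here in the embryonic mouse limb are Pax3, Pax7, Lbx1 and Met of muscle progenitors, Myf5, Myod1, Myog and Myf6 of commitment and differentiation, and Mymk and Cdh15 of fusion and maturation. The 10 genes were chosen by name, and the counts of all tags to which the deposited table gave a member's Ensembl gene were summed per library. They are 10 of 26252 genes or transcript clusters with a tag, and each had at least 1 tag with counts. Tag profiling (DGE-SAGE) with the enzyme NlaIII had been run on total RNA of whole dissected hindlimbs and forelimbs of CD1 embryos at E14.5, with 2 biological replicates of each limb type. No genotype or treatment separates the groups, and the labels do not say how many embryos a replicate held or whether hindlimbs and forelimbs of the same number came from the same embryos.

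Limb muscle comes from the somites. Pax3 is the transcription factor of the migrating progenitors, Lbx1 and the receptor Met serve their delamination and migration into the limb bud, and Pax7 marks the progenitors that sustain fetal growth. Myf5 and Myod1 are the basic helix-loop-helix factors of commitment, Myog drives terminal differentiation, and Myf6 acts in determination and again in maturing fibres. Mymk encodes Myomaker, a membrane protein needed for myoblast fusion, and Cdh15 encodes M-cadherin, an adhesion protein of myoblasts and satellite cells.

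In this assay cDNA is cut at CATG, and 17 bases after the most 3′ site are read, so a transcript is counted through a short tag near its 3′ end and the count does not scale with transcript length. The tags below are shown because the member results rest on them. Capitals mark the NlaIII site, the bases after it are the tag in the deposited table, and positions come from a match to GENCODE M21 transcripts on GRCm38, whereas the submitters' processing notes name mm9.
Pax3, last site, 3′ UTR, chr1:78101310-78101330, minus strand: CATGtaaaaagtgcagtaaat
Pax7, last site, no gene given in the table, 3′ UTR, chr4:139737230-139737250, minus strand: CATGaggggtgtgagtgggat
Lbx1, last site, no gene given in the table, 3′ UTR, chr19:45232894-45232914, minus strand: CATGtgacagagacctaaaga
Lbx1, the tag given to the gene, 3′ UTR, chr19:45233671-45233691, minus strand: CATGcccgccgcctcccggat
Met, last site, 3′ UTR, chr6:17573911-17573931, plus strand: CATGtgttaataattgttctg
Myf5, last site, 3′ UTR, chr10:107482981-107483001, minus strand: CATGagccaggttttattaac
Myod1, last site, 3′ UTR, chr7:46378994-46379014, plus strand: CATGctgtgtagtgcaacaaa
Myod1, next site upstream, 3′ UTR, chr7:46378631-46378651, plus strand: CATGcggctcacagcgaaggc
Myog, last site, 3′ UTR, chr1:134292150-134292170, plus strand: CATGagtgccctgacctggac
Myf6, its 1 site in the annotated transcript, coding sequence of exon 1: CATGatgatggacctttttga
Mymk, last site, 3′ UTR, chr2:27061866-27061886, minus strand: CATGcagggttatctatttcc
Mymk, next site upstream, 3′ UTR, chr2:27062063-27062083, minus strand: CATGagaaatggtcttctcta
Cdh15, last site, 3′ UTR, chr8:122867226-122867246, plus strand: CATGgactaggcagctagagg

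Library totals were 5325279 and 5015295 tags in hindlimb replicates 1 and 2, and 4695786 and 1829647 tags in forelimb replicates 1 and 2. In CPM, tag counts scaled to a common library size with edgeR's TMM factors, 1 count was worth 0.224 and 0.254 CPM in the hindlimb libraries and 0.256 and 0.621 CPM in the forelimb libraries. The genes that mark limb type separated the libraries as labelled, with Pitx1 (254 and 305 CPM in hindlimb, 3.33 and 1.24 CPM in forelimb), Tbx4 (43.1 and 57.6 CPM in hindlimb, 8.71 and 3.11 CPM in forelimb) and Tbx5 (0.894 and 1.52 CPM in hindlimb, 18.4 and 14.9 CPM in forelimb). Base composition also differed by library: G or C made up 46.3% and 50.4% of the tag bases counted in hindlimb and 40.6% and 40.2% in forelimb. Values are therefore also given with a tag-sequence offset, which is fitted to differences between tags of the same gene and removes per library what their bases predict.

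Between limb types, Myf5 and Mymk fell in hindlimb relative to forelimb, and no member rose. In edgeR's quasi-likelihood test 2 of 7 tested members were past an adjusted p of 0.05, beside 16.7% of all 13718 tested genes (9.58% higher and 7.08% lower in hindlimb). By role these were 0 of 2 tested progenitor genes, 1 of 3 commitment genes (Myf5) and 1 of 2 fusion genes (Mymk). Pax7, Lbx1 and Myf6 had too few counts for the test. The median log2 fold change of hindlimb over forelimb was -0.87 over the 7 tested members and -0.029 over all tested genes. With the tag-sequence offset these medians were -0.45 and -0.0085. The groups did not overlap for 4 of the 7, 3 lower and 1 higher in hindlimb, against 62.8% of all tested genes (31.4% in each direction). Pax3, among the 3 lower, reached the count filter through its forelimb counts. Its place in this count and in the median is therefore no separate support for a lower level in hindlimb. Once the tag-sequence offset was applied, 0 of 7 passed (1 at an unadjusted p under 0.05, Cdh15, lower in hindlimb), beside 0.175% of all genes. The tissue was a whole limb, and the base composition of the tags differed with limb type. Fewer myogenic cells, less RNA per cell and tag base composition therefore cannot be told apart.

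**Figure D1:**
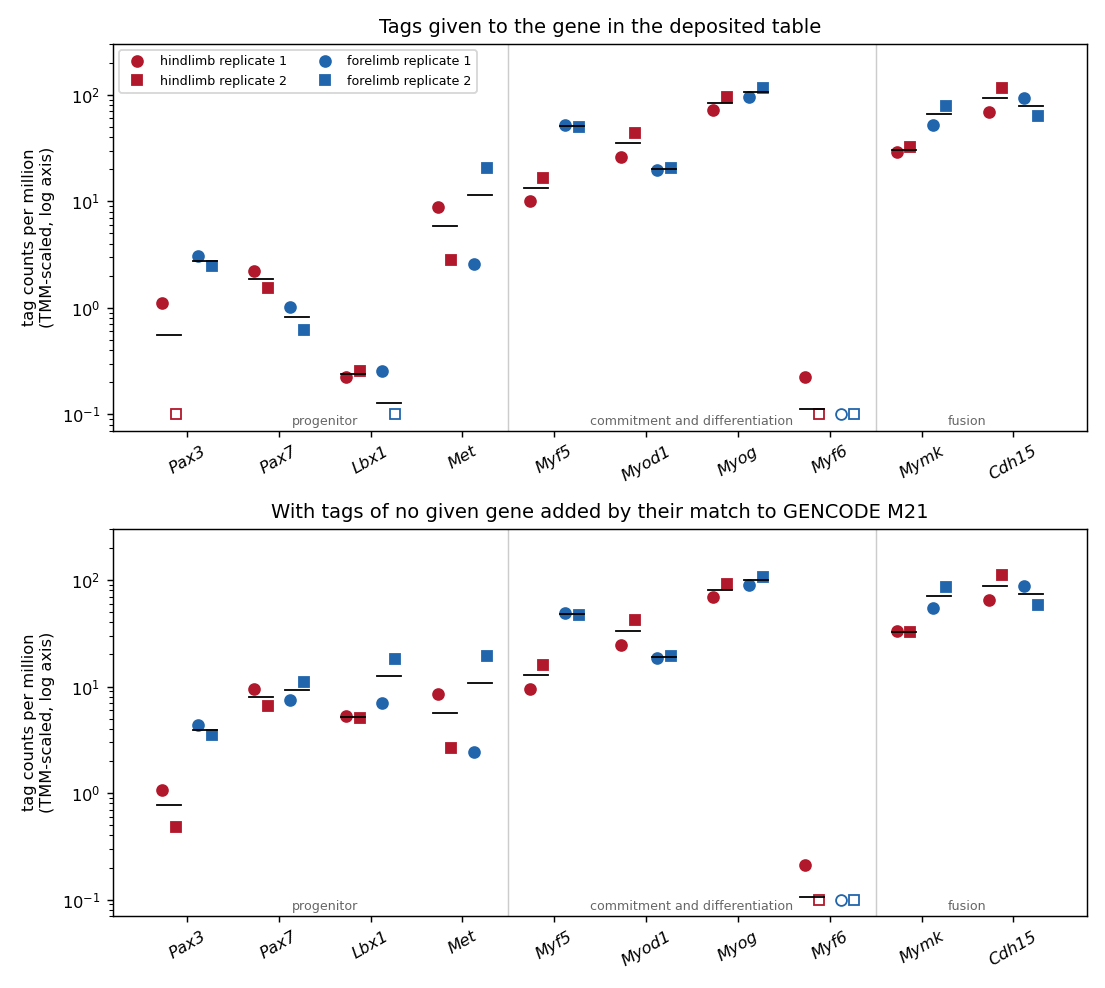
CPM (log axis) of the 10 myogenic genes in each library, from tags given to the gene in the deposited table (top) and with tags of no given gene added (bottom). Red symbols are hindlimb and blue are forelimb, circles are replicate 1 and squares replicate 2, bars are means of 2, and open symbols at the bottom of the axis are counts of 0. Myf5 and Mymk are lower in both hindlimb libraries, and Lbx1 and Pax7 are several times higher in the lower panel than in the upper.

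All 4 progenitor genes averaged fewer CPM than Myf5, Myod1, Myog, Mymk and Cdh15 in either limb type. Pax3 had 5 and 0 counts in hindlimb against 12 and 4 counts in forelimb, which is 1.12 and 0 CPM against 3.07 and 2.49 CPM. Both hindlimb libraries lay below both forelimb libraries, but the log2 fold change of -2.22 ± 1.40 (SE) did not pass (edgeR adjusted p = 0.288). A count of 0 allows up to 3 counts, or 0.761 CPM, in hindlimb replicate 2. Pax3 reached the count filter through its forelimb counts, so it could enter the tested members through the limb type in which it was higher.

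Met, the receptor of hepatocyte growth factor, had 8.94 and 2.79 CPM in hindlimb and 2.56 and 20.5 CPM in forelimb. The replicates of each limb type differed more than the limb types did, and the log2 fold change of -0.87 ± 0.82 did not pass (edgeR adjusted p = 0.501). It was 1.19 without forelimb replicate 2 and 0.26 with the tag-sequence offset, so no direction can be given. The last-site tag carried this spread, with 20 and 0 counts in hindlimb and 5 and 25 counts in forelimb. Met is also made by epithelium, whose 6 markers summed to 757 and 916 CPM in hindlimb and 563 and 523 CPM in forelimb. Of these 6 markers 1, the basal keratin Krt14, was called higher, beside 9.58% of all tested genes. With the tag-sequence offset Krt14 went from 1.04 to -0.35 and was not called. The median of the 6 log2 fold changes went from 0.64 to -0.31. The part of epithelium in the Met values was not tested.

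Lbx1 and Pax7 were held mainly by tags to which the deposited table gives no gene. The table gives Lbx1 a tag at the fourth site from the 3′ end, with 1 and 1 count in hindlimb and 1 and 0 counts in forelimb. The last-site tag of Lbx1, printed above, had 17 and 20 counts in hindlimb and 19 and 28 counts in forelimb. Pax7 had 10 and 6 counts in hindlimb and 4 and 1 counts in forelimb on its given tags, while its last-site tag alone had 24 and 5 counts in hindlimb and 20 and 15 counts in forelimb. Each such tag matched the transcripts of 1 gene in GENCODE M21.

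With these tags added, a step chosen after the counts were seen, Lbx1 stood at 5.32 and 5.09 CPM in hindlimb against 7.0 and 18.0 CPM in forelimb. Pax7 stood at 9.58 and 6.54 CPM in hindlimb and 7.48 and 11.05 CPM in forelimb. The Lbx1 groups then did not overlap and the Pax7 groups did, but neither passed, with log2 fold changes of -1.21 ± 0.64 for Lbx1 (edgeR adjusted p = 0.194) and -0.17 ± 0.59 for Pax7 (edgeR adjusted p = 0.873). On the given tags alone Pax7 had been higher in both hindlimb libraries, an order that the added tags do not keep. In that fit 2 of 9 tested members were called, again Myf5 and Mymk, beside 17.3% of 14359 tested genes.

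Lbx1 and Pax7 are also expressed in spinal cord, and Pax3 in neural crest. The 8 neuronal markers summed to 41.8 and 31.2 CPM in hindlimb and 69.4 and 93.8 CPM in forelimb. Stmn2, 1 of 3 tested, was called lower, beside 7.08% of all tested genes, and was not called with the tag-sequence offset. The inhibitory markers Gad1 and Gad2 had at most 3 and 5 counts in a library and Slc32a1 had no tag. The 8 Schwann cell, neural crest and melanoblast markers summed to 39.8 and 46.7 CPM in hindlimb and 32.0 and 27.3 CPM in forelimb, with 0 of 6 tested called by edgeR at the adjusted threshold (2 at an unadjusted p under 0.05, Dct and Pmel). The part of these cells in the Pax3, Pax7 and Lbx1 values was not tested.

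Myf5 showed the largest called difference among the members. It had 10.1 and 16.7 CPM in hindlimb and 52.5 and 49.7 CPM in forelimb, or 13.4 ± 4.72 CPM against 51.1 ± 1.97 CPM (SD, n = 2 each). Both hindlimb libraries lay well below both forelimb libraries. The log2 fold change was -1.93 ± 0.40 (edgeR adjusted p = 0.00447), and it ran from -1.62 to -2.33 and stayed called when any 1 library was left out. The last-site tag held 24 and 59 counts in hindlimb and 98 and 46 counts in forelimb. With the most abundant tag alone the value was -1.44 (edgeR adjusted p = 0.0815). The tag-sequence offset brought it to -0.57 (edgeR adjusted p = 0.707).

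Myod1 had 25.9 and 44.1 CPM in hindlimb and 19.7 and 20.5 CPM in forelimb. Both hindlimb libraries lay above both forelimb libraries, yet the log2 fold change of 0.80 ± 0.40 did not pass (edgeR adjusted p = 0.181). Under the tag-sequence offset it was 0.065. Its last-site tag had 68 and 75 counts in hindlimb and 48 and 24 counts in forelimb. The GC-rich tag upstream, with 46 and 93 counts in hindlimb and 26 and 9 counts in forelimb, differed more.

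The balance of the commitment pair is shown as a share that was chosen after the values were seen. Myod1 made up 72.0% and 72.5% of the Myod1 and Myf5 counts in hindlimb, with Wilson 95% intervals of 64.7% to 78.4% and 66.5% to 77.8%. In forelimb the share was 27.3% and 29.2%, with intervals of 22.4% to 32.8% and 21.6% to 38.2%. The hindlimb and forelimb intervals are far apart, although they cover counting error alone, because tags are PCR products without molecular identifiers. Counted at the last sites alone, Myod1 held 73.9% and 56.0% in hindlimb and 32.9% and 34.3% in forelimb. The intervals then nearly met, at 47.5% to 64.1% in hindlimb replicate 2 and 24.2% to 46.0% in forelimb replicate 2. In CPM with the tag-sequence offset the shares were 62.5% and 49.9% in hindlimb and 43.2% and 45.4% in forelimb, so the gap was much narrower but kept its order.

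Myog, the differentiation factor, was among the most abundant members in both limb types. It had 72.7 and 96.3 CPM in hindlimb and 96.3 and 114.9 CPM in forelimb, values that overlap only at 96.3 CPM. The log2 fold change was -0.32 ± 0.32 (edgeR adjusted p = 0.535). The tag-sequence offset gave -0.45. An offset for GC content alone gave -1.48 (edgeR adjusted p = 0.00485). Myog made up 73.7% and 68.6% of the Myog and Myod1 counts in hindlimb and 83.0% and 84.9% in forelimb.

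Myf6 lies 6718 bases from Myf5 on chromosome 10 and had 1 and 0 counts in hindlimb and 0 and 0 counts in forelimb. Its annotated transcript holds a single NlaIII site, in the coding sequence of exon 1 and 1210 bases from the 3′ end. A count of 0 allows up to 1.86 CPM in forelimb replicate 2, the shallowest library.

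Mymk had 28.8 and 32.2 CPM in hindlimb and 52.0 and 78.9 CPM in forelimb, or 30.5 ± 2.38 CPM against 65.4 ± 19.0 CPM (SD, n = 2 each). Both hindlimb libraries were below both forelimb libraries, and the log2 fold change of -1.09 ± 0.36 was just past the threshold (edgeR adjusted p = 0.0485). The call ended when any library was left out: the value was -1.02 without hindlimb replicate 1, -1.15 without hindlimb replicate 2, -1.37 without forelimb replicate 1 and -0.78 without forelimb replicate 2. With the replicate number as a block the edgeR adjusted p was 0.0614. The tag-sequence offset gave -0.37 (edgeR adjusted p = 0.753).

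The Mymk difference sat on the upstream tag of its 2 main tags. The last-site tag had 87 and 93 counts in hindlimb and 58 and 50 counts in forelimb, a log2 fold change of -0.061. The next tag upstream had 32 and 29 counts in hindlimb and 142 and 70 counts in forelimb, a log2 fold change of -2.45. The last site thus held 73.1% and 76.2% of these counts in hindlimb and 29.0% and 41.7% in forelimb. In edgeR's tag-usage test, which asks whether the tags of a gene differ in ratio, Mymk had an unadjusted p of 0.0493 and an adjusted p of 0.172, and 0 of 5 tested members passed beside 10.6% of 8694 genes. The base composition of the upstream tag predicted -1.95 and that of the last-site tag 0.14. Leaving out any library also gave 0 members.

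Cdh15 had 68.9 and 115.9 CPM in hindlimb and 94.0 and 62.8 CPM in forelimb, and the groups overlapped. The log2 fold change was 0.22 ± 0.35 (edgeR adjusted p = 0.702). It was -0.19 without hindlimb replicate 2 and -0.036 without forelimb replicate 2. With the tag-sequence offset it was -0.62 ± 0.25 (edgeR adjusted p = 0.442). The sign thus depended on the setting, so no direction can be given. Its last-site tag held 198 and 325 counts in hindlimb and 232 and 57 counts in forelimb.

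**Figure D2:**
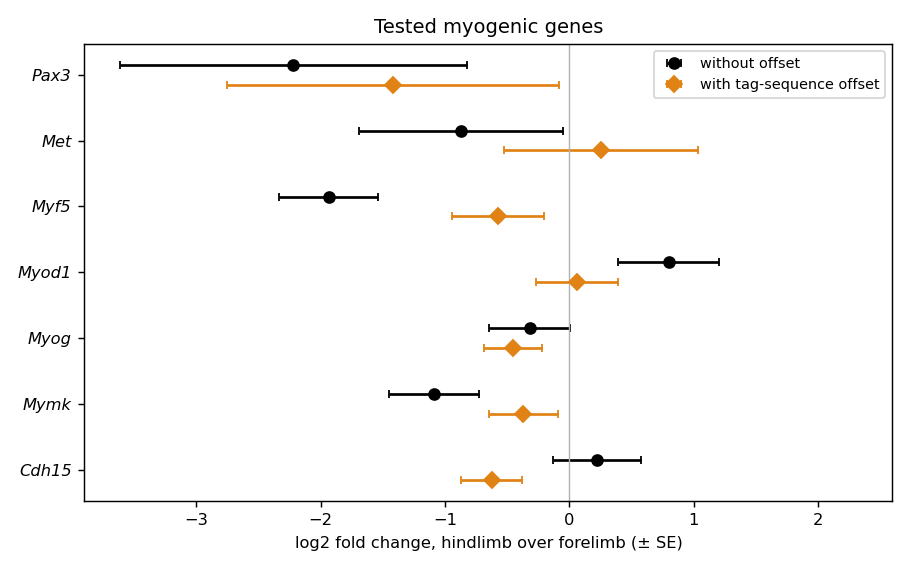
Log2 fold change of hindlimb over forelimb (points) with its standard error (bars) for the 7 tested myogenic genes, without an offset (black circles) and with the tag-sequence offset (orange diamonds). Myf5 moves to -0.57 and Mymk to -0.37 with the offset, and Met and Cdh15 change sign.

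Across the 16 tags of 5 members with enough counts, the fold change of a tag mostly went with its bases, and a cause was not tested. Pearson's r between the log2 fold change of a tag and the value fitted from base composition was 0.854, a description over tags that share libraries and, within a gene, a transcript. The 4 Myf5 tags, with 29.4% to 35.3% G or C, lay between -3.27 and -1.397, and the upstream Mymk tag, at 35.3%, lay among them at -2.45. The Myf5 tag at -3.27 had a fitted value of only -0.47. With the tag-sequence offset the Myf5 last-site tag stood at 0.29 and the others at -1.24, -1.54 and -3.06. The tags at -1.54 and -3.06 matched no annotated transcript. The GC-rich tags of Myod1 (70.6%) and Cdh15 (64.7%) lay highest, at 1.44 and 1.25. The last-site tag of Myog, also at 64.7%, stood at -0.56.

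**Figure D3:**
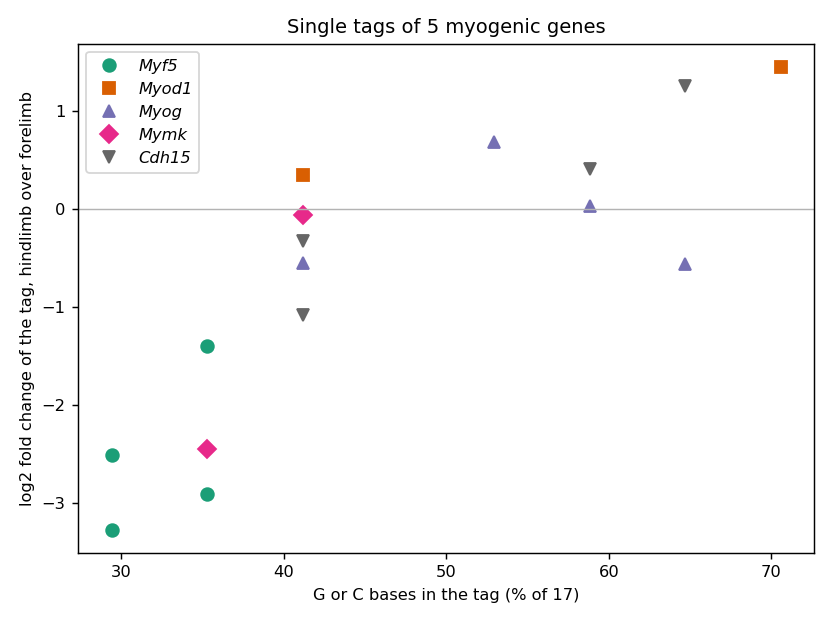
Log2 fold change of hindlimb over forelimb (vertical axis) against the percent of G or C among the 17 tag bases (horizontal axis) for 16 tags of Myf5, Myod1, Myog, Mymk and Cdh15, a point per tag. The 4 Myf5 tags lie at the lower left and the Myod1 tag of 70.6% at the upper right, while the pair of Mymk tags differ by over 2 log2 units.

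Ranked by level within a limb type, Cdh15 and Myog led in hindlimb with overlapping ranges, at means of 92.4 and 84.5 CPM. Myod1 and Mymk followed with overlapping ranges at 35.0 and 30.5 CPM, and Myf5 stood lower at 13.4 CPM. In forelimb Myog led at 105.6 CPM, above Cdh15, Mymk and Myf5 at 78.4, 65.4 and 51.1 CPM, of which neighbours overlapped. Myod1 was lower at 20.1 CPM and overlapped Met. With the added tags, Lbx1, Met and Pax7 stood between 5.20 and 12.5 CPM in both limb types, and Pax3 below them at 0.774 CPM in hindlimb and 3.92 CPM in forelimb.

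Summed by role with the added tags, the progenitor genes made 24.5 and 14.8 CPM in hindlimb and 21.2 and 51.8 CPM in forelimb. The commitment and differentiation genes, from given tags, made 109 and 157 CPM in hindlimb and 168 and 185 CPM in forelimb. The fusion genes, also from given tags, made 97.7 and 148 CPM in hindlimb and 146 and 142 CPM in forelimb. The commitment sums did not overlap, and the progenitor and fusion sums did. Of all single genes tested, 62.8% did not overlap. Within the commitment sums Myf5 was lower and Myod1 higher in both hindlimb libraries, so the sums do not show a shift of the role as a whole. With the tag-sequence offset the limb types overlapped for both genes. No offset was applied to the sums.

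Some muscle fibre genes fell in hindlimb as Myf5 and Mymk did. The 11 fibre markers, contractile and synaptic genes such as Acta1 and Myh3, summed to 2556 and 2458 CPM in hindlimb and 7152 and 5836 CPM in forelimb, with 5 of 11 called lower and 0 higher, beside 7.08% and 9.58% of all tested genes. The other 6 did not pass, and among them Des was higher in both hindlimb libraries, with a log2 fold change of 0.55 (-0.47 with the tag-sequence offset). With the tag-sequence offset 1 of 11, Acta1, was called, beside 0.175% of all tested genes. The log2 fold change of every marker was then negative, with a median of -0.77, against -1.06 without the offset. Per 1000 CPM of these markers, Myod1 stood at 10.1 and 18.0 in hindlimb and 2.76 and 3.51 in forelimb, Myog at 28.4 and 39.2 in hindlimb and 13.5 and 19.7 in forelimb, and Cdh15 at 26.9 and 47.1 in hindlimb and 13.1 and 10.8 in forelimb. These ratios were higher in both hindlimb libraries. Most of the marker sum came from Actc1 and Acta1, both called lower, so the ratios mainly reflect these genes. Actc1 and Acta1 had 1366 and 522 CPM in hindlimb replicate 1 and 4023 and 1980 CPM in forelimb replicate 1. No offset was applied to the ratios. Myf5 stood at 3.94 and 6.81 in hindlimb and 7.34 and 8.52 in forelimb on the same scale, lower in both hindlimb libraries but with 6.81 close to 7.34. Mymk stood at 11.3 and 13.1 in hindlimb and 7.27 and 13.5 in forelimb, which overlap. The part of muscle content in the member differences was not tested.

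Among 52 further genes of the pathway, 46 were tested, of which 2 were called higher and 7 lower in hindlimb and 37 did not pass. These 9 of 46 are a share near the 16.7% called over all tested genes. The median log2 fold change of the 46 was -0.35, beside -0.029 over all tested genes. Under the tag-sequence offset none passed, 0 of 46 (4 at an unadjusted p under 0.05). Of 16 upstream and migration genes 1 rose and 2 fell, of 16 partners and cofactors 1 rose and 3 fell, and of 14 fusion and adhesion genes 2 fell.

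Hes6, a Hes-family factor that promotes myogenic differentiation, had 61.9 and 148 CPM in hindlimb and 28.9 and 20.5 CPM in forelimb. Its log2 fold change was 2.06 ± 0.42 (edgeR adjusted p = 0.00395) and it kept its call without any 1 library, but it was 0.33 with the GC offset and -0.50 with the tag-sequence offset. Eya2, a transcriptional co-activator of the myogenic network, had 16.99 and 6.59 CPM in hindlimb and 35.3 and 35.4 CPM in forelimb. Both hindlimb libraries lay below both forelimb libraries, with a log2 fold change of -1.57. The call of Eya2 ended without hindlimb replicate 2 (-1.04), without forelimb replicate 1 (-1.57) and without forelimb replicate 2 (-1.58), and its value was -0.43 with the tag-sequence offset.

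Among partners, the cell-cycle inhibitor Cdkn1a rose, with 19.7 and 17.2 CPM in hindlimb and 6.66 and 5.59 CPM in forelimb and a log2 fold change of 1.57. Its call ended without any 1 library (1.46 to 1.72) and its value was -0.10 with the tag-sequence offset. Mef2c, a MADS-box partner of the myogenic factors, had 115 and 107 CPM in hindlimb and 222 and 221 CPM in forelimb (-0.99). Id3, an inhibitor of basic helix-loop-helix factors, had 97.7 and 41.6 CPM in hindlimb and 166 and 315 CPM in forelimb (-1.78). Rb1, the retinoblastoma protein needed for cell-cycle exit, had 35.1 and 17.5 CPM in hindlimb and 80.7 and 63.4 CPM in forelimb (-1.45). All hindlimb libraries lay below all forelimb libraries for these 3 genes. With the tag-sequence offset the log2 fold changes were -0.26 for Mef2c, -0.12 for Id3 and -0.20 for Rb1, and none of the 3 passed. Mef2c lost its call without hindlimb replicate 2 (-0.93), forelimb replicate 1 (-0.99) and forelimb replicate 2 (-1.0), Id3 without forelimb replicate 2 (-1.26), and Rb1 without hindlimb replicate 2 (-1.03) and forelimb replicate 1 (-1.26).

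Among fusion genes, Dock1, a guanine nucleotide exchange factor needed for myoblast fusion, had 87.9 and 51.5 CPM in hindlimb and 218 and 239 CPM in forelimb. Its log2 fold change was -1.71 ± 0.34 (edgeR adjusted p = 0.0035) and stayed called without any 1 library, and it was -0.44 with the tag-sequence offset. Myof, the membrane protein myoferlin, had 15.2 and 16.5 CPM in hindlimb and 44.8 and 29.8 CPM in forelimb (-1.25). Its call ended without hindlimb replicate 2 (-1.30), forelimb replicate 1 (-0.91) and forelimb replicate 2 (-1.51), and its value was -0.025 with the tag-sequence offset. Mymx, the Myomixer partner of Mymk in fusion, had 12.3 and 17.7 CPM in hindlimb and 13.6 and 10.6 CPM in forelimb, a log2 fold change of 0.29 ± 0.48 that did not pass (edgeR adjusted p = 0.716).

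**Figure D4:**
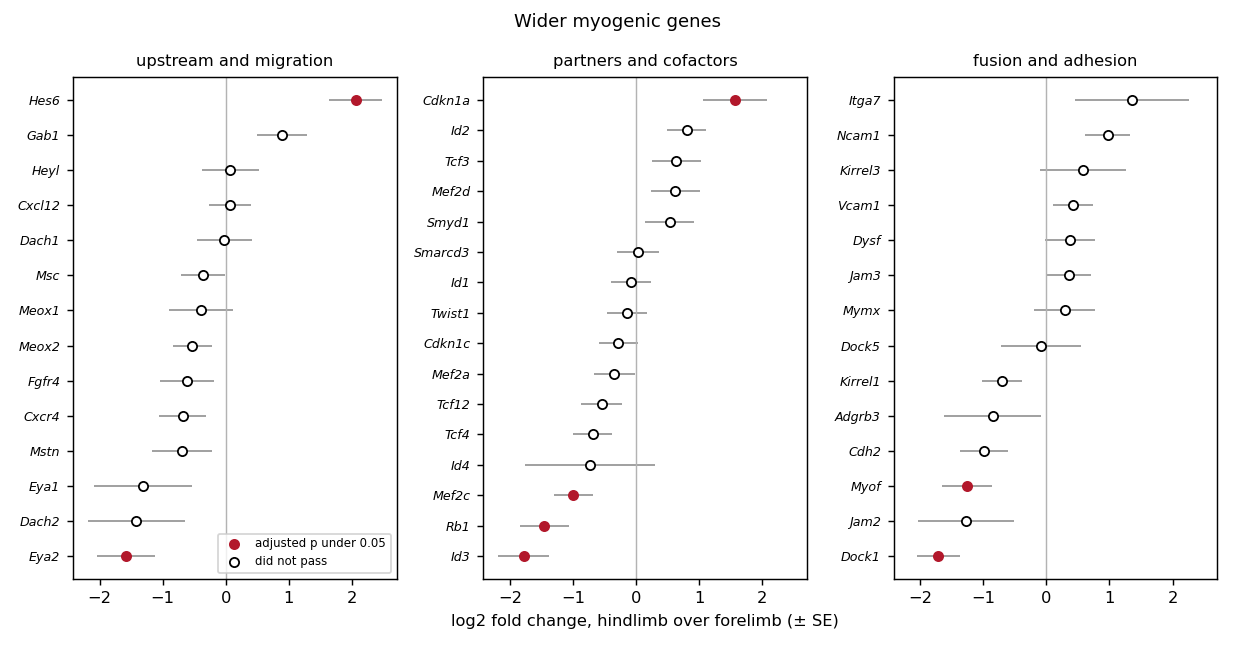
Log2 fold change of hindlimb over forelimb (points) with its standard error (bars) for 44 of the 46 tested pathway genes beyond the members, in 3 roles. Filled points passed an adjusted p of 0.05 and open points did not; the 2 shown as called higher are Hes6 and Cdkn1a, and the 6 shown as called lower are Eya2, Id3, Rb1, Mef2c, Dock1 and Myof.

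The genes whose level pattern over the 4 libraries was nearest to that of Myod1 were Atp6v0c, Lsr and Neu1, at root mean square distances of 0.0246, 0.0372 and 0.0431 in centred log2 CPM. For Myog these were a transcript cluster without an Ensembl gene, Alg13 and Acaa1a, at 0.0207, 0.0293 and 0.0343. With 4 libraries, 73 and 75 of 9684 genes lay within 0.1 of Myod1 and Myog.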

How the data were processed

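The authors deposited a table of whole-number tag counts per library, unnormalized, with a UniGene cluster and Ensembl gene where a tag had been assigned. The submitters' processing notes name Bowtie and mm9; the Bowtie version is not given in the sources used here. Of 733961 tags, 166502 had a gene or cluster, which gave 26252 features. Tags with neither (14.8% to 18.7% of a library's counts) stayed out of library sizes and tests.

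The comparison of limb types used edgeR 4.0.16 under R 4.3.3 (quasi-likelihood test, TMM, filterByExpr with a minimum count of 10, Benjamini-Hochberg adjustment over all tested genes, 2 residual degrees of freedom). Log2 fold changes are hindlimb over forelimb. Tag usage was tested with diffSpliceDGE. Alternatives were DESeq2 1.42.0, other size factors, no filter, a replicate block, omission of each library, subsets of tags, a GC offset (lowess span 0.3) and the tag-sequence offset, fitted on 61466 tags. The fit of the tag-sequence offset was tried on simulated counts with a known bias per library. Unassigned tags were added where they matched 1 GENCODE M21 gene.

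The members, lists and offsets were chosen with earlier results of these data known. Named are all members, the called genes of the wider pathway list (some genes of this list are not reported here), the 3 genes of at least 10 CPM nearest in profile to Myod1 and to Myog, and Tbx5, Tbx4 and Pitx1. Other genes named were chosen after their values were seen. The labels call the replicates biological without naming animals, so p-values measure the spread between these libraries. Neither pair was a resampling of 1 library (chi-square per df 20.0 for hindlimb, 8.73 for forelimb).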

Additional observations from a re-analysis of the deposited data

Results flagged for a closer look

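Tags that the deposited table leaves without a gene or cluster, and which enter no comparison of given tags, held counts matching the transcripts of a single gene among the members. Members with more than 3 such counts over the 4 libraries are listed. They came to 103 counts on 3 tags for Lbx1, 101 on 6 tags for Pax7, 79 on 7 tags for Mymk and 10 on 3 tags for Pax3. For Lbx1 they were 24 and 20 in hindlimb and 28 and 31 in forelimb, and for Pax7 35 and 21 in hindlimb and 27 and 18 in forelimb. For Mymk they were 26 and 8 in hindlimb and 23 and 22 in forelimb. Across the table, 73749 such tags matched 1 gene and held 28.6% of the counts without a gene or cluster.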

How the results depend on the processing

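Without an offset, calls came to 2285 genes, 2 members and 9 further pathway genes. With the tag-sequence offset the counts called were 24 (19 shared with the 2285 in the same direction), 0 and 0. With the GC offset they were 875, 2 and 4, the members being Myf5 and Myog, while Mymk was not called; of the genes named for the pathway list Dock1 kept its call. Leaving out 1 library in turn gave 950 to 3900 genes, 1 member each time and 3 to 13 pathway genes. The member count was also 1 with the most abundant tag alone, with tags of 1 M21 gene, with the last NlaIII site alone and with the replicate block, and 2 with DESeq2, other size factors or no filter. The direction turned for Met without forelimb replicate 2 (1.19) and with the tag-sequence offset (0.26), and for Cdh15 without hindlimb replicate 2 (-0.19), without forelimb replicate 2 (-0.036), with the GC offset (-0.45) and with the tag-sequence offset (-0.62). Over the omitted libraries Met ran from -1.95 to 1.19 and Cdh15 from -0.19 to 0.56; the cause was not tested. Myf5 stayed called in 13 of 15 alternatives and Mymk in 6 of 15. At the last site alone Mymk had -0.22 (edgeR adjusted p = 0.793). Its most abundant tag, picked by mean level over the 4 libraries, gave -2.48 (edgeR adjusted p = 0.00551). That was the upstream tag, which had the higher mean only through its forelimb levels, so the value is no separate support. By total counts the last-site tag was larger, with 288 against 273. With the replicate block the counts called were 2151 genes, 1 member, 7 pathway genes and 0 members in tag usage; Mymk, Mef2c, Cdkn1a and Myof lost their calls. The deviations of the libraries numbered 1 from their group means were weakly opposed (r = -0.20 across 9689 genes). Base composition also differed in opposite order between replicates 1 and 2, at 46.3% and 50.4% G or C in hindlimb and 40.6% and 40.2% in forelimb. This r therefore cannot show whether embryos were shared. The labels do not state pairs, so the numbers are not taken as pairs. Crossed numbers gave 3170 genes, 2 members and 12 pathway genes. Depth limits Pax3, Myf6 and the given tags of Pax7 and Lbx1, and 2 libraries a limb type limit every test.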

Other observations

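A pair of the 7 Myf5 tags matched no annotated transcript next to a CATG and were given to the gene by the deposited table. They had 6 and 2 counts in hindlimb and 38 and 7 counts in forelimb, and 4 and 0 counts in hindlimb and 22 and 6 counts in forelimb. The Myf5 tag in the coding sequence of exon 3 had 0 and 0 counts in hindlimb and 26 and 2 counts in forelimb, so most of its counts came from forelimb replicate 1.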
